A study of Caenorhabditis elegans with 2 samples.

Results

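The regions described here are 487 intergenic candidate regions of DMD-4 in the piRNA clusters of chromosome IV of Caenorhabditis elegans. They were taken from 11281 candidate regions that the authors called on both replicates together, 2269 of which lie on chromosome IV. A region was a member when its summit, the position of highest signal, lay at 4.5 to 7.0 Mb (142 regions, the proximal window) or at 13.5 to 17.2 Mb (345 regions, the distal window) of chromosome IV in the ce11 assembly. It also had to lie outside every protein-coding gene, and outside the 1000 bp before and the 200 bp after each start site of such a gene. The same gene rule gave 333 intergenic regions on the rest of chromosome IV, and it defined the intergenic positions, or qualifying sequence, that serve for comparison. No measured value chose the members beyond their presence in the candidate list.

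Both replicates are chromatin immunoprecipitation sequencing (ChIP-seq) libraries of whole L2 larvae, pooled male and female, of strain OP418 with the genotype unc-119(tm4063) III; wgIs418. The transgene gives DMD-4 a C-terminal GFP-FLAG tag, and 1 strain carries it in both libraries, so no second condition and no untagged group is compared here. The labels call them biological replicates 1 and 2 and do not say whether the worms were grown separately. Sequencing depth is unknown because read counts were not used here. Replicate 1 alone gave 676 members of 17531 candidate regions, and replicate 2 alone gave 595 of 18240. With 1 group, no difference below was tested. Shares carry 95% exact (Clopper-Pearson) intervals, which cover the counting of regions only, and regions are not replicates of a condition.

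DMD-4 belongs to the DM-domain family of transcription factors, which bind DNA through an intertwined zinc module and are known for roles in sex differences. The piRNAs of C. elegans, called 21U-RNAs, bind the Piwi protein PRG-1 in the germline, where they mark foreign sequence for silencing. Most come from very many small genes crowded into AT-rich clusters on chromosome IV. Each gene is its own RNA polymerase II transcription unit, and many carry an upstream sequence known as the Ruby motif, whose core is CTGTTTCA. Promoters of this kind have been tied to SNPC-4, PRDE-1 and TOFU-4.

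The Ensembl annotation placed 14204 of the genome's 15363 21U-RNA genes in the windows, 7601 of them at intergenic positions. All 14204 are 21 bases long, and 13668 (96.2%) begin with T in the genome. CTGTTTCA starts 42 to 51 bp upstream of the RNA's 5′ end at 4922 of them (34.7%), and most often, at 1734 genes of chromosome IV, it starts 46 bp upstream. The regions below show what such a promoter looks like under a DMD-4 candidate region. They are the 3 members of highest signal among the 48 (9.86%) with the 5′ end of a motif-bearing 21U-RNA gene within 50 bp of the summit. The same share over intergenic positions is not given here, so the 48 serve only to choose the regions shown. Capitals mark CTGTTTCA and the 21U-RNA after it, 100 bases are shown on either side of the summit, and sequences are from the RefSeq genome of the ce11 assembly.
chrIV:15477467-15477667, plus strand, with 21ur-7385: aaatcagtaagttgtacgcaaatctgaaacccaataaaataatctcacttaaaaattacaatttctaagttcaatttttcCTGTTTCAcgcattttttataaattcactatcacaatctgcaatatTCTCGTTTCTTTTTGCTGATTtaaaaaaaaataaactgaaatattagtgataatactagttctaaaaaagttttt
chrIV:5079577-5079777, minus strand, with 21ur-14120: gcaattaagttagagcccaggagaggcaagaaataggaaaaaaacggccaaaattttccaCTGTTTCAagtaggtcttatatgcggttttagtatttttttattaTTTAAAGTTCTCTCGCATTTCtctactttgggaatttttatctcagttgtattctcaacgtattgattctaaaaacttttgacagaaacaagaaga
chrIV:14624160-14624360, plus strand, with 21ur-3690: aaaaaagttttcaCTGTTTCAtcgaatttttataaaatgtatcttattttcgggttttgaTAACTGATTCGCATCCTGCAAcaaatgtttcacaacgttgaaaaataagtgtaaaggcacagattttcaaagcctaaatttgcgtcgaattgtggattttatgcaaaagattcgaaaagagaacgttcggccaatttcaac

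In these 3 regions the motif starts 46, 45 and 47 bp upstream of the RNA. The region at 21ur-7385 reached 25.1 in the pooled list, 16.4 in replicate 1 and 7.97 in replicate 2, and its summit lies 26 bp from the 5′ end. Signal is the authors' own enrichment value per region, on a scale not given in the sources used here, and it is compared only within a list. The region at 21ur-14120 had a pooled signal of 23.1 and overlapped a region of replicate 2 (12.0) but none of replicate 1. The region at 21ur-3690 reached 22.8, with 11.3 and 9.65 in replicates 1 and 2. The nearest protein-coding start site to it, at 1721 bp, is that of dmd-6, another gene of the DM-domain family. By signal these regions rank 1306, 1799 and 1872 in the pooled list.

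The strongest members lie elsewhere, at the microRNA gene mir-52. This gene makes a microRNA of the mir-51 family, which is abundant through development and needed for embryogenesis. The summit of the strongest member lies 1 bp inside the start of the 100-bp gene as RefSeq gives it (chrIV:14034008-14034107, plus strand). The first sequence below runs from 100 bases before that summit to 150 after it, with both mature arms in capitals. The next lines give the arms as RNA with their seeds, bases 2 to 8, in capitals. The last is the other member that met the threshold of the authors' irreproducible discovery rate (IDR) analysis, a filter on how well ranks repeat across replicates; it holds no CTGTTTCA and so has no capitals.
chrIV:14033909-14034159, plus strand, at mir-52: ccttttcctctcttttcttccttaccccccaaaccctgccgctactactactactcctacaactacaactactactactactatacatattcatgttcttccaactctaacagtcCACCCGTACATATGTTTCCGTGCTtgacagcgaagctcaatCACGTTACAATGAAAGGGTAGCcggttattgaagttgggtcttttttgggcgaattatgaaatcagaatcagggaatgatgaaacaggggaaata
mir-52, arm at chrIV:14034024-14034047: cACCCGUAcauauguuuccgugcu
mir-52, arm at chrIV:14034065-14034086: cACGUUACaaugaaaggguagc
chrIV:14033087-14033287, plus strand, second IDR member: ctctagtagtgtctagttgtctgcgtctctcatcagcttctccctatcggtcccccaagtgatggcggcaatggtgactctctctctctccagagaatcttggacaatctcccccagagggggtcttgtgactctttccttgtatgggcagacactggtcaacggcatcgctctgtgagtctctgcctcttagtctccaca

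The member at the mir-52 start (chrIV:14033834-14034183) reached 51.6 in the pooled list, 36.8 in replicate 1 and 16.5 in replicate 2. Its summit also lies in the noncoding RNA gene Y37A1B.335. The second (chrIV:14033012-14033361), 822 bp before it, reached 47.2 in the pooled list, 33.7 in replicate 1 and 21.5 in replicate 2. One more member (chrIV:14034323-14034672), 489 bp after the first, reached 38.2, with 9.26 and 26.5 in replicates 1 and 2, and was no IDR peak. These 3 members span 1661 bp. The nearest annotated 21U-RNA gene to any of their summits is 703 bp away, and the nearest protein-coding start site, that of Y37A1B.7, is over 9 kb from all of them. Their GC contents within 100 bp of the summit were 43.3%, 53.2% and 35.3%, against a median of 26.4% over all members.

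The member at the mir-52 start and the one before it were the only IDR peaks, 2 of 487 members (0.411%, interval 0.0498 to 1.48%). On the rest of chromosome IV, 3 of 333 intergenic regions were (0.901%, interval 0.186 to 2.61%), and over the whole pooled list 212 of 11281 were (1.88%). The proximal window held 0 of 142, which allows up to 2.56%. The intervals of the piRNA windows and the rest of chromosome IV overlap, so a difference between these intergenic classes was not detectable at these numbers. The 3 on the rest of the chromosome were nearest to R05C11.4 (signal 72.2), Y77E11A.16 (60.6) and tag-89 (48.6), and none of them had a 21U-RNA gene within 500 bp.

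The next strongest members stood in the proximal window, which held 6 of the 10 highest signals. A region 3570 bp from the start of tni-4, a troponin I gene of muscle, reached 41.97 in the pooled list, 16.9 in replicate 1 and 29.1 in replicate 2. A region near C01G5.7 had 39.3, with 28.2 and 15.6, and held the MAB-3 core TGTTGC. One 1086 bp from the start of C09B9.1 had 39.1, with 19.8 and 13.996. Near usp-4, a gene named for a ubiquitin-specific protease, the signal was 34.6, with 17.4 and 18.4. All of these were overlapped by both replicate lists. Near lip-1, a phosphatase gene of MAP kinase signalling in the germline, the signal was 33.5, with 24.4 and 7.41. A region in the noncoding RNA gene Y73B6BL.284 near pqn-89 had 35.1, with 29.3 in replicate 1 and no overlapping region in replicate 2. The one remaining member of the 10 lies in the distal window at chrIV:15791956-15792305; it had 36.4, with 16.9 and 19.2, and 6 21U-RNA genes within 500 bp. It was also the only one of the 10 with CTGTTTCA near its summit. In the pooled list these 10 members rank between 173 and 515.

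Over all members the signal ran from 13.1 to 51.6 with a median of 16.5, against 13.1 to 72.2 with a median of 16.8 on the rest of chromosome IV and a median of 16.6 in the whole list. The proximal median was 17.5 and the distal median 16.1. In each replicate's own list the medians were likewise close: 9.37 for members and 9.33 for the rest of chromosome IV in replicate 1, and 8.54 and 8.25 in replicate 2. At the upper end the shares were further apart, but their intervals overlap and a difference was not tested. The top 10% of the pooled list, at 26.1 or above, held 25 of 487 members (5.13%, interval 3.35 to 7.49%) and 34 of 333 regions on the rest of chromosome IV (10.2%, interval 7.18 to 13.97%).

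The 2 replicates overlapped at a minority of members. Both replicate lists overlapped 176 of 487 (36.1%, interval 31.9 to 40.6%) by at least 1 bp, and 142 of 333 regions on the rest of chromosome IV (42.6%, interval 37.3 to 48.2%). In the whole pooled list the share was 39.2%, so the members' share lies near that background. Replicate 1 alone overlapped 151 members, replicate 2 alone 128, and neither list overlapped 32. Taken from the replicates' own lists, 27.8% of the members of replicate 1 were overlapped by replicate 2 (32.1% on the rest of chromosome IV), and 32.1% of those of replicate 2 by replicate 1 (31.98% on the rest). Across the 176 members that both overlapped, Pearson's r of the log2 signals was 0.117 and Spearman's rho 0.00387; across the 142 regions of the rest of chromosome IV they were 0.321 and 0.178. Without the 3 regions at mir-52 they were 0.0465 and -0.0248 over 173 members. These coefficients describe 1 pair of libraries, and neighbouring members can share a region of a replicate list. A region entered only if the pooled list and both replicate lists called it. The coefficients therefore cover a restricted range of signal and do not measure agreement over all regions.

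**Figure D1:**
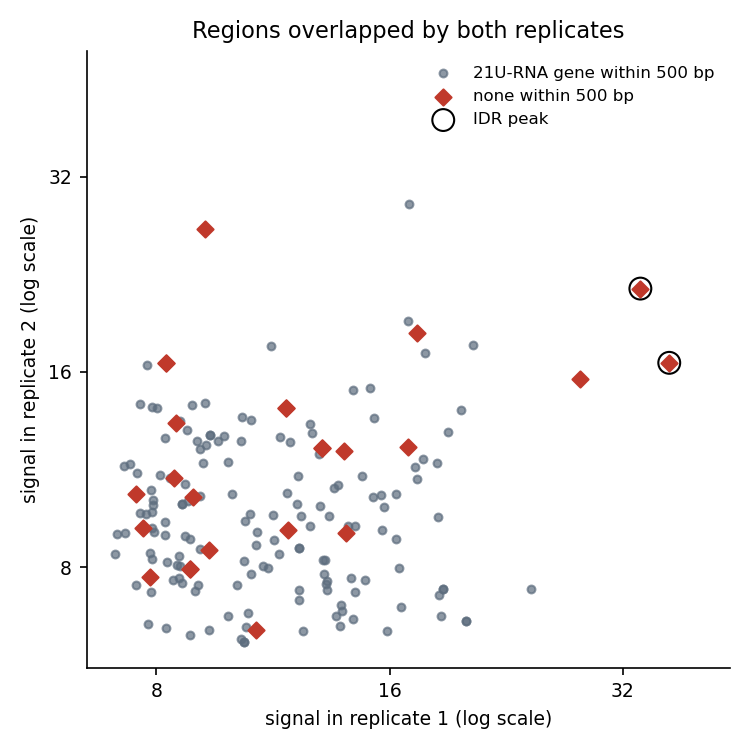
Each point is a member overlapped by both replicate lists, with its signal in replicate 1 on the horizontal axis and in replicate 2 on the vertical axis (log scales, n = 176). Red diamonds have no 21U-RNA gene within 500 bp, grey points have at least 1, and rings mark the 2 IDR peaks at mir-52, which stand at the right edge of an otherwise shapeless cloud.

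Members were denser per base of intergenic sequence in the piRNA windows than on the rest of chromosome IV. The windows held 195.4 regions per Mb of qualifying sequence (487 in 2.49 Mb), against 131.8 per Mb on the rest (333 in 2.53 Mb), a ratio of 1.48. The proximal window (192.3 per Mb) and the distal window (196.7 per Mb) were alike. Replicate 1 gave 271.3 against 197.1 per Mb and replicate 2 gave 238.8 against 205.4 per Mb, ratios of 1.38 and 1.16 (mean 1.27 ± 0.151, SD, n = 2). The excess over 1 was larger than the SD between replicates, although replicate 2 came close to it. The other autosomes together held 104.8 regions per Mb, from 89.3 on chromosome II to 122.0 on chromosome III. Chromosome X held 170.5 per Mb, and its ratio changed sides between libraries: the windows over X came to 1.15 in the pooled list, 1.13 in replicate 1 and 0.942 in replicate 2.

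**Figure D2:**
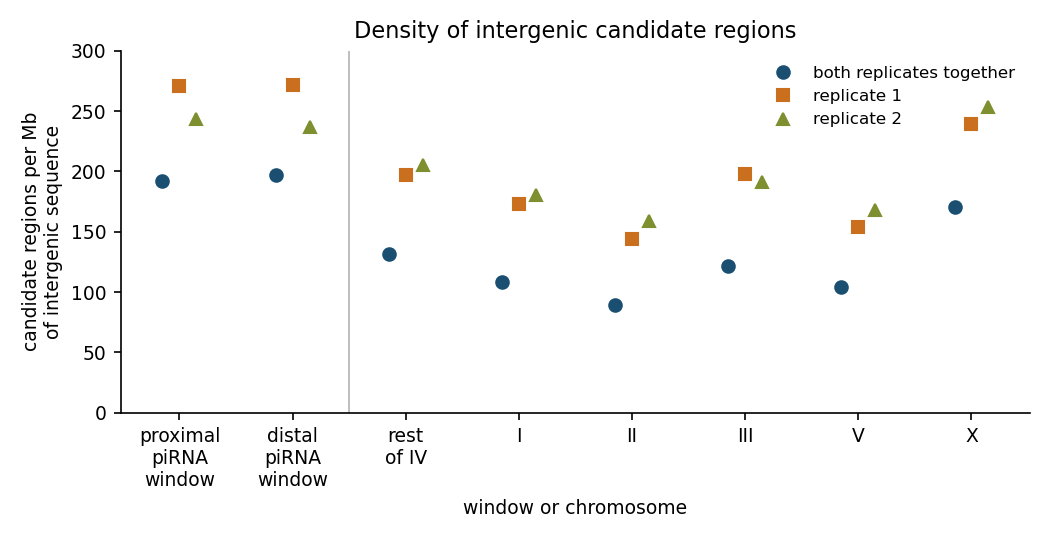
Candidate regions per Mb of intergenic sequence in the piRNA windows, on the rest of chromosome IV and on the other chromosomes, in the pooled list and in each replicate list. The windows stand above the rest of chromosome IV in all 3 lists, and chromosome X stands above them in replicate 2.

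Base composition moved with this excess. The median GC content of the bases within 100 bp of a summit was 26.4% in members, with quartiles of 23.9 and 30.3%, against 29.9% in regions on the rest of chromosome IV. Over all intergenic positions it was 29.4% in the windows and 33.8% on the rest. Density fell from each stratum of GC content to the next in the windows, and on the rest of chromosome IV up to 40 to 45%, as the plot by GC content shows. At 20 to 25% GC there were 387.9 members per Mb (158 regions), against 335.3 per Mb on the rest. At 25 to 30% there were 212.3 (189 regions) against 217.6, and at 30 to 35% 152.2 (83 regions) against 126.0 per Mb. At 35 to 40% there were 78.7 (24 regions) against 62.9, and at 40 to 45% 73.3 (13 regions) against 42.9 per Mb. At 45 to 50% the order was the other way, 43.0 (4 regions) against 72.8 per Mb. Standardised to the GC content of the windows, the density ratio was 1.08 in the pooled list, 1.05 in replicate 1 and 0.932 in replicate 2. This standardisation was added after the densities were seen, and the part of GC content in the excess was not tested.

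**Figure D3:**
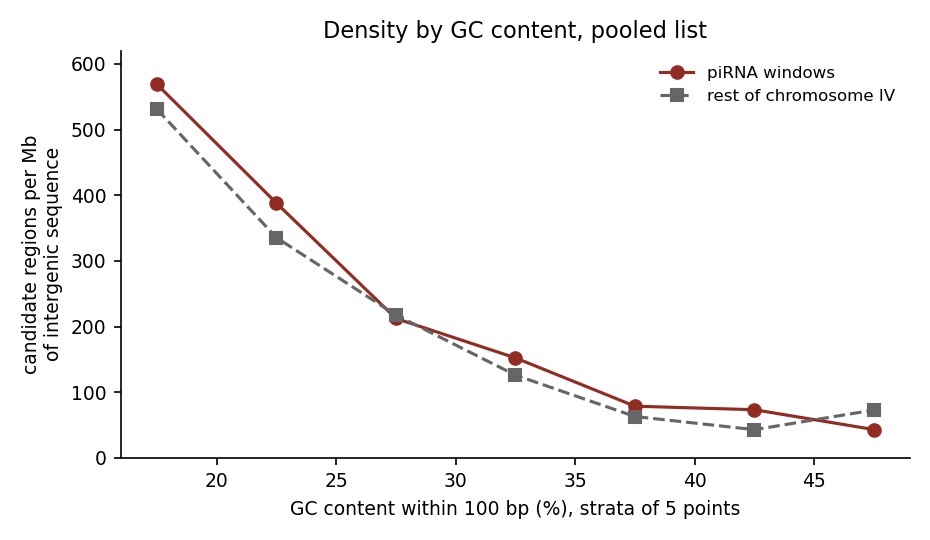
Candidate regions per Mb of intergenic sequence by GC content within 100 bp, in the piRNA windows and on the rest of chromosome IV, pooled list. Both lines fall steeply from 15 to 40% GC and run close together; the strata at 15 to 20%, 40 to 45% and 45 to 50% hold 15, 13 and 4 members.

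Runs of 4 or more A or of 4 or more T took up 21.5% of bases around member summits, against 19.2% on the rest of chromosome IV and 18.9% at intergenic positions of the windows. Phased A/T runs are a sequence feature known from many germline genes of C. elegans. Starts of AAAA or TTTT, also those inside longer runs, were counted in pairs. Pairs 10 bp apart were set over the mean of pairs 7 and 13 bp apart. This ratio was 1.18 in members, 1.24 on the rest of chromosome IV and 1.28 at positions of the windows. It was not higher at members, but it was not adjusted for base composition or for long runs. Sequence that is soft-masked in the reference genome, whose kinds were not separated, made up 50.6% of bases around members. It made up 43.2% on the rest of chromosome IV and 47.6% at positions of the windows.

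Members lay close to 21U-RNA genes more often than intergenic positions of the same windows did. The 5′ end of such a gene was within 100 bp of the summit at 269 of 487 members (55.2%, interval 50.7 to 59.7%), against 38.1% of intergenic positions taken every 10 bp. The share was 54.4% in replicate 1 and 53.8% in replicate 2. The median distance was 89 bp from member summits and 157 bp from positions. In the proximal window the share was 30.3% for members and 19.95% for positions, and in the distal window 65.5% and 45.8%. On the rest of chromosome IV, 11 of 333 regions (3.30%, interval 1.66 to 5.83%) had one so near, against 1.13% of positions there.

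GC content differed between members and positions as well, and its part in the 21U-RNA share was not tested. Weighted to the GC content of the regions, positions of the windows came to 47.3% for the pooled list, 47.4% for replicate 1 and 45.5% for replicate 2. The members' shares stayed above these in each list, of which the pooled list is drawn from both replicates. The interval of the pooled share lies above the weighted value. It covers the counting of regions only, and 36 members overlap another member, so it is too narrow. By GC content the shares were 63.3% for members against 58.6% for positions at 20 to 25%, 60.8 against 51.3% at 25 to 30%, and 49.4 against 33.7% at 30 to 35%. In the lowest stratum, 15 to 20% GC with 15 members, they ran the other way, 46.7 against 55.9%. Transcription of the 21U-RNA genes was not measured in these data, so its part in the result was not tested.

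Seen from the 21U-RNA genes, few were near a member. Of the 7601 at intergenic positions of the windows, 456 (6.00%, interval 5.48 to 6.56%) had a member summit within 100 bp of the 5′ end, against 3.90% of intergenic positions. The share was 5.76% (149 of 2589, interval 4.89 to 6.72%) for genes with CTGTTTCA upstream and 6.13% (307 of 5012, interval 5.48 to 6.83%) for genes without it. The intervals overlap, so no difference by promoter motif was detectable. These genes lie close together and share members, so the intervals are too narrow. Neither the genes nor the positions were weighted for GC content here.

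Density around the 5′ ends of all 14204 21U-RNA genes of the windows, per intergenic base, was above the mean of the windows in every bin out to 1000 bp, in all 3 lists. Within 100 bp it was 1.45 to 1.63 times the mean of the windows in the pooled list, 1.54 to 1.57 times in replicate 1 and 1.305 to 1.54 times in replicate 2. From 200 to 1000 bp away the medians were still 1.33, 1.31 and 1.25. At 100 to 200 bp the pooled values, 1.454 upstream and 1.488 downstream, lay within the range of those near the genes. In the pooled list the bins from 200 bp outward ran from 1.17 to 1.4451, just below the lowest value near the genes, 1.4498. In replicate 2 they ran from 1.13 to 1.47 and overlapped the values near the genes. None of these densities was weighted for GC content, and a summit near several 21U-RNA genes was counted once for each.

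**Figure D4:**
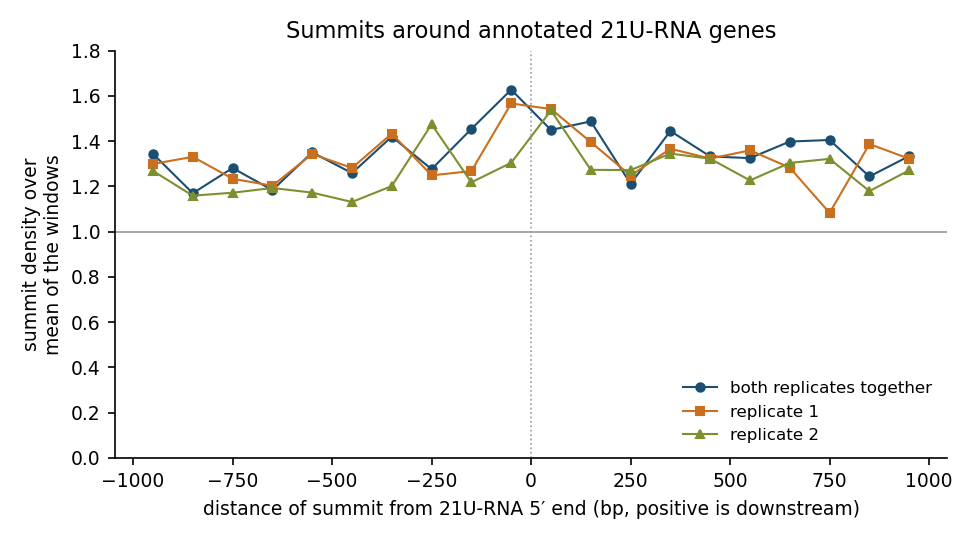
Density of member summits in bins of 100 bp, by distance from the 5′ end of all 21U-RNA genes of the windows, per intergenic base (negative is upstream), over the mean of the windows, in the pooled list and in each replicate list. Values near the 5′ end exceed most of those at 200 to 1000 bp, which themselves stay above 1. Densities are not weighted for GC content, and a summit counts once for each 21U-RNA gene near it.

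The Ruby core showed the same order with a smaller gap. CTGTTTCA on either strand lay within 100 bp of the summit at 122 of 487 members (25.1%, interval 21.3 to 29.1%), against 18.0% of intergenic positions of the windows. It was at 9 of 333 regions on the rest of chromosome IV (2.70%). Replicate 1 gave 24.6% and replicate 2 gave 22.2%. Positions weighted for GC content came to 22.5, 22.5 and 21.5% for the 3 lists, and the weighted pooled value lies inside the members' interval. The shorter GTTTC, which is contained in CTGTTTCA, was at 70.6% of members and 64.7% of positions.

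Cores linked to DM-domain proteins were near the background of the windows, which was not weighted for GC content for these cores. ACAATGT, searched with its reverse complement ACATTGT, lay within 100 bp of 22 member summits (4.52%, interval 2.85 to 6.76%), against 4.30% of positions of the windows and 2.40% of regions on the rest of chromosome IV. TGTTGC, the core bound by the relative MAB-3, lay at 28 (5.75%, interval 3.85 to 8.20%), against 7.46% of positions and 8.11% of regions on the rest. None of CTGTTTCA, ACAATGT and TGTTGC was within 100 bp of either IDR summit. The mir-52 sequence shown above holds TGAAACAG, the reverse complement of CTGTTTCA, farther than 100 bp from the summit and not in capitals.

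**Figure D5:**
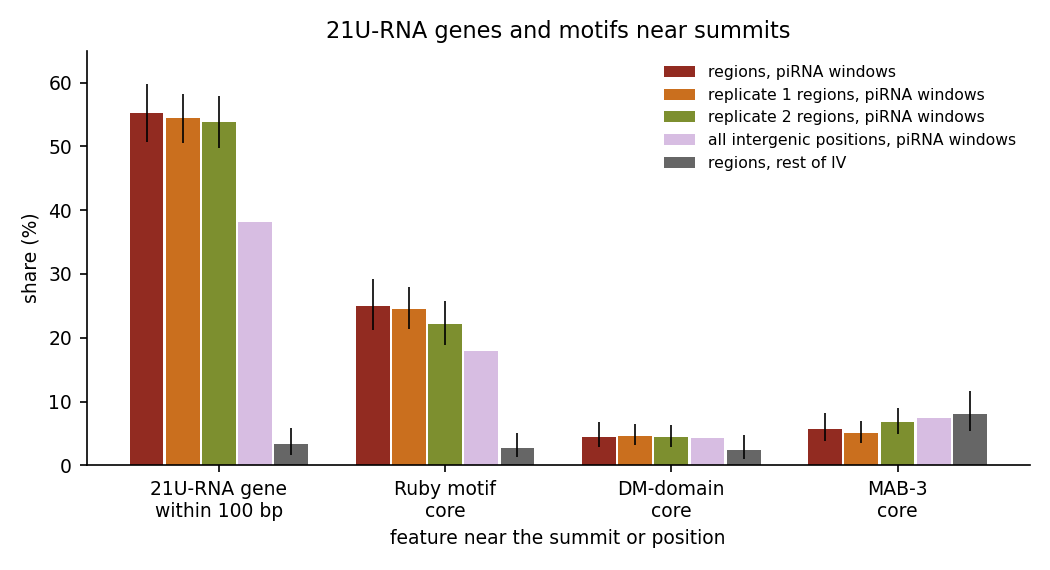
Percent with a 21U-RNA gene, CTGTTTCA (Ruby motif core), ACAATGT (DM-domain core) or TGTTGC (MAB-3 core) within 100 bp, for member regions of the pooled list and of each replicate list, for all intergenic positions of the windows (not weighted for GC content) and for regions of the rest of chromosome IV. Lines are 95% exact intervals on regions; positions are a full census and have none; the gap between members and positions is widest for the 21U-RNA gene, at 55.2 against 38.1%.

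Signal and replicate overlap were set beside the number of 21U-RNA genes around each member. The windows differ in this number: 104 of 142 proximal and 337 of 345 distal members had such a gene within 500 bp. They differ in signal as well, with medians of 17.5 and 16.1. Both replicate lists overlapped 40.1% of proximal and 34.5% of distal members. With no such gene within 500 bp there were 46 members, of median signal 17.5 and median GC 32.3%, of which 54.3% (interval 39.0 to 69.1%) were overlapped by both replicates, and they include both IDR peaks. The 162 members with 1 to 3 genes had a median signal of 17.1, and 39.5% (interval 31.9 to 47.5%) were overlapped by both. The 264 with 4 to 9 genes had a median of 16.1, and 30.7% (interval 25.2 to 36.6%) were. The 15 with 10 or more had a median of 16.2 and a highest value of 21.3, and 40% (interval 16.3 to 67.7%) were. The intervals of the members with none and with 4 to 9 do not overlap. However, some neighbouring members with none, as near tsr-2, overlap the same replicate regions and were counted separately. The intervals are therefore too narrow, and no difference between these classes can be read from them. GC content, at 25.9% for the members with 4 to 9, and the window also differ between the classes. Their parts were not tested.

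The most crowded member, near sta-1, a STAT transcription factor gene, had 15 21U-RNA genes within 500 bp and a signal of 13.3. It overlapped a region of replicate 1 (9.89) and none of replicate 2. A region near uroc-1 had 13 such genes and a signal of 16.4, and its summit lies inside 4 overlapping 21U-RNA genes: 21ur-14907, 21ur-14950, 21ur-2822 and 21ur-6251. It overlapped a region of replicate 1 (10.2) only. Of the regions nearest to hlh-32, a helix-loop-helix gene, one had 12 genes and a signal of 13.9, and another had 11 genes and a signal of 16.6. A region near C47A4.1 had 11 genes and reached 21.1 in the pooled list, 13.4 in replicate 1 and 9.60 in replicate 2. It held both CTGTTTCA and ACAATGT near its summit.

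Split into 4 equal groups by signal, members from weakest to strongest had a 21U-RNA gene within 100 bp at 58.2, 60.7, 54.5 and 47.5%. Both replicates overlapped 21.3, 18.0, 42.1 and 63.1% of them. The pooled signal comes from the same 2 replicates, so a higher overlap in the stronger groups is in part built in. The median GC contents of the 4 groups were 26.9, 26.4, 26.4 and 26.4%. Only these medians were compared, not the spread of GC content within each group, and the part of GC content was not tested. The intervals of the weakest group (48.9 to 67.1%) and the strongest (38.4 to 56.8%) overlap for the 21U-RNA share.

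Member summits mostly lay in unannotated sequence: 446 were in no gene of any kind, 26 in a 21U-RNA gene, 8 in other noncoding RNA genes, 7 in pseudogenes, and 1 each in a microRNA, a tRNA and an antisense RNA gene, some in more than one of these. Every member is 350 bp wide, as called by the authors, and 36 overlap another member. Neighbouring summits were 199 to 166723 bp apart with a median of 4413 bp. The nearest protein-coding start site was at a median of 3743 bp.

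At each of the 4 edges of the windows the nearest region outside had a higher signal than the nearest member. At 4.5 Mb the nearest member had a signal of 20.5 and the nearest region outside 24.6. At 7.0 Mb they were 15.2 and 42.5, with adah-1 the nearest gene to the region outside. At 13.5 Mb they were 13.9 and 15.2, and at 17.2 Mb 18.3 and 23.2. The member at 4.5 Mb had 0 21U-RNA genes within 500 bp, and the region outside 17.2 Mb had 6. These single pairs therefore do not set 21U-RNA clusters against other sequence. At the start-site limit, the member closest to it lies 1030 bp upstream of ZK185.4 (signal 20.5), and the closest region that missed it lies 998 bp upstream of dnbp-1 (signal 17.0). In 61 bins of 100 kb, which share libraries and base composition, the density of members and of 21U-RNA genes had a Pearson r of 0.288 in the pooled list, 0.326 in replicate 1 and 0.124 in replicate 2. The density of 21U-RNA genes and GC content had an r of -0.743 over the same bins.

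The genes of the piRNA pathway itself were also examined. Of 30 listed genes 27 were found by symbol, and 3 had a candidate region in the same start-site stretch that the rule for members leaves out (11.1%), against 18.1% of 19973 nuclear protein-coding genes. These were tofu-4, a factor of 21U-RNA transcription, at 20.3 (9.89 and 9.78 in replicates 1 and 2), mut-7, an exonuclease of small RNA amplification, at 19.95 (15.96 in replicate 1 only), and pid-1, a 21U-RNA biogenesis factor, at 13.7 (8.36 in replicate 2 only). None of the 27 had an IDR peak there, against 0.816% of all these genes. In the replicate lists 4 of the 27 (14.8%) had a candidate region in replicate 1, against 26.0% of all these genes, and 5 (18.5%) in replicate 2, against 26.4%. Beyond those named, these were tofu-5 (6.99), a factor of 21U-RNA biogenesis, and henn-1 (10.9), the methyltransferase of 21U-RNA ends, in replicate 1. In replicate 2 they were znfx-1 (6.43), a helicase of small RNA inheritance, mut-2 (8.51), a nucleotidyltransferase of small RNA amplification, and fkh-4 (7.49), a forkhead gene. With 27 genes these counts lie within a few genes of the background. Neither prg-1 nor snpc-4 nor prde-1 had a candidate region in the pooled list or in either replicate list.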

How the data were processed

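Peak lists of DMD-4 ChIP-seq in L2 larvae, 2 replicates of 1 group, were used. Per the deposited file descriptions, the authors called candidate regions per replicate and on both replicates together, each with a control alignment, and derived the thresholded list by IDR from these. The aligner, the caller, their versions and the IDR threshold were not given in the sources used here. Candidate lists hold weak regions, since they are input for IDR. The signal is the authors' deposited value, never negative and of unknown scale. The deposited −log10 q-value, tied at the top of a list, was not used. The summit is the deposited offset within a region.

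Coordinates are 1-based in ce11, the same sequence as WBcel235. Genes came from Ensembl release 115 and sequence from RefSeq. The ce10 lists, in their own coordinates, served only to count regions in the windows. Overlap meant at least 1 bp. Sequence features were taken within 100 bp of the summit, and beside them at intergenic positions every 10 bp. The start-site windows, the members and the gene and motif lists were chosen with earlier results of these data known. Members were named by rule: the IDR peaks, the 10 with the highest signal, the top 3 of each window, the 5 with the most 21U-RNA genes within 500 bp, and the regions at the window edges; the 3 regions shown at 21U-RNA promoters, the start-site limit were added later. Replicates give the spread, and no test was run, since there is 1 group. Alternatives were other start-site and window limits, stronger regions, each replicate alone, other distances, another comparison class and GC content. The counting and weighting steps were tested on simulated data. Software was scipy 1.17.1, pandas 2.3.3, numpy 2.4.6 and matplotlib 3.10.9 under Python 3.11.15.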

Additional observations from a re-analysis of the deposited data

How the results depend on the processing

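No single alternative turned a direction, but GC strata and replicate 2 together took the density ratio to 0.932. Of 96 values, 57 were counted as the same and 39 as moved. This label was loose for the number of members. Values of 409, 595 and 676 were counted as the same as 487, although the SD between replicates was 57.3. No paired analysis was possible because there is 1 group of 2 samples. The alternatives for GC content, for masked sequence, for the locus at mir-52 and for both ratios were chosen after seeing the data. Where a value moved, the cause was not tested, except that smaller windows or stricter rules change what is counted by construction.

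The density ratio of 1.48 was 1.87 against the other autosomes, 1.08 within GC strata and 1.16 to 1.38 in single replicates. Only regions at or above the median signal left 237 members, of median signal 19.99, a 21U-RNA share of 50.2% and an overlap by both replicates of 53.6%. That overlap follows in part from the rule, since the pooled signal comes from the same replicates. Requiring the summit to lie inside a region of each replicate gave an overlap of 25.3%. Without the 3 regions at mir-52, 0 members were IDR peaks. Median GC content was 25.7% within 50 bp, 27.3% within 250 bp and 26.9 to 27.4% in single replicates, which gave 595 to 676 members.

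The 21U-RNA share was 53.4% with start-site limits of 500 and 100 bp, 57.5% with 2000 and 500 bp, 58.7% with window edges moved inward by 250 kb, 29.2% within 50 bp, 82.3% within 250 bp and 53.8 to 54.4% in single replicates. Its ratio to positions, 1.45, was 1.42, 1.47 and 1.47 for the first 3 of these changes, 1.33 within 50 bp, 1.35 within 250 bp, 1.36 with other annotated genes excluded, 1.32 for stronger regions, 1.42 in less masked windows, 1.17 within GC strata and 1.41 to 1.43 in single replicates. The CTGTTTCA share was 14.6% within 50 bp, 52.6% within 250 bp, 70.6% for GTTTC and 22.2 to 24.6% in single replicates. Its ratio to positions, 1.39, was 1.60 within 50 bp, 1.09 for GTTTC, 1.11 within GC strata and 1.23 to 1.36 in single replicates. By their own coordinates the windows held 44.6% of the regions of chromosome IV in ce10 and 45.0% in ce11. Depth is unknown, so neither weak regions nor missing ones can be set against read counts, and 1 strain with no untagged group analysed here limits what a candidate region stands for.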
